A study of Mus musculus with 12 samples.

Results

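The 10 genes described here, which the cofactors YAP and TAZ are known to switch on, were read from RNA sequencing of 4 mouse small-cell lung cancer (SCLC) lines. They are Ankrd1, Amotl2, Ptpn14, Crim1, F3, Nt5e, Myof, Nuak2, Dock5 and Fjx1. They were chosen by name from a published target signature of human cancers, leaving out its CCN genes (Ctgf and Cyr61), and each has 1 row among the 24458 rows of the table. They are a part of that signature, whose 12 other genes, the CCN genes among them, are read further below. All 10 passed the filter on low values (at least 1 FPKM in at least 3 libraries), as did 13122 rows in all. FPKM is a fragment count divided by transcript length and by the fragments mapped in that library. Ankrd1 and Myof passed it only through Non-SMC libraries, in which they were high.

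The cells came from lung tumors of mice of the RP model, which carry conditional Rb1 L/L and Trp53 L/L alleles on a mixed C57Bl/6, Balb-c and S129 background. Adenovirus with Cre under the ubiquitous CMV promoter was given into the trachea, so recombination was not limited to a single lung cell type. By the study's genotyping, both genes were deleted in both sorted populations. SMC (SCLC metastasizing cells) had high NCAM and little or no CD44 in the sort and grow as floating spheres. Non-SMC had low NCAM and high CD44 and grow attached. The lines are SMC#1, SMC#2, Non-SMC#1 and Non-SMC#2, all untreated, with 3 libraries each, so 2 lines stand behind each class. The labels pair the lines by number, and pair 1 and pair 2 are used below in that sense. The data availability text assigns this series to SMC with control or mutant TAZ, but the labels name SMC and Non-SMC lines and were taken as correct. Whether the libraries of 1 line are separate cultures is not stated in the labels, so p-values measure only the spread between libraries, which may be technical.

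YAP and TAZ are coactivators without a DNA-binding domain of their own. When the Hippo kinases are off, they enter the nucleus, bind TEAD factors on DNA and raise transcription. When the kinases are on, they are phosphorylated and kept in the cytoplasm or degraded. Cells that spread on a stiff surface usually hold more nuclear YAP and TAZ than rounded or floating cells. Several target genes encode proteins that in turn restrain YAP and TAZ, among them Amotl2 and Ptpn14 of the genes described here. YAP is known to be low in neuroendocrine SCLC.

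The libraries held an estimated 28561200 to 43906000 mapped fragments, from the spacing of low values with an assumed fragment length of 300 bp. Spearman correlations across rows were 0.983 to 0.997 within a line, 0.909 to 0.926 between lines of a class and 0.634 to 0.659 between the classes. Chga, which encodes the neuroendocrine granule protein chromogranin A, ranged from 214 to 485 FPKM in SMC and did not pass 0.0401 in Non-SMC. Of the genes of the sorted proteins, Cd44 was at 0.0760 to 0.229 FPKM in SMC and 76.0 to 88.5 in Non-SMC, whereas Ncam1 RNA went against the sort, at 32.1 to 37.6 FPKM in SMC and 41.0 to 52.6 in Non-SMC. Rb1 was at 2.90 to 4.16 FPKM in SMC and 0.738 to 0.982 in Non-SMC, and Trp53 at 6.95 to 7.79 and 2.94 to 3.70. Both thus had reads in every library and were higher in SMC. Since their rows also cover exons outside the deleted part, they do not check the deletion.

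The members lie on 7 chromosomes. In the mm9 positions of the table, Nuak2 is at chr1:134212702-134230065, Ptpn14 at chr1:191552147-191700572, Fjx1 at chr2:102289523-102291949, F3 at chr3:121426455-121437970 and Nt5e at chr9:88222447-88266927. Amotl2 is at chr9:102620134-102635747, Dock5 at chr14:68369985-68551629, Crim1 at chr17:78599588-78775932, Ankrd1 at chr19:36186455-36194334 and Myof at chr19:37973526-38118067. Each value is for a whole gene, and isoforms were not separated.

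Promoters of 7 members were in the RefSeq table of the GRCm38.p6 build (250 bases before to 50 after the start listed there), namely those of Ankrd1, Amotl2, Ptpn14, Crim1, F3, Nt5e and Myof. Nuak2, Dock5 and Fjx1 had no entry. They were searched for the core of the TEAD binding site, GGAATG or CATTCC on the other strand, and for the core of the AP-1 site, TGANTCA, which reads the same on both strands. AP-1 is a factor that often binds beside TEAD. The TEAD core was in 4 of the 7 (Ankrd1, Amotl2, Ptpn14 and Crim1), and 14.7% of the 32851 promoters in the table hold it. The AP-1 core was in 1 of the 7 (F3), against 7.81% of all. Nt5e and Myof had neither. A match is a stretch of letters and does not show binding. The stretches around the matches are shown 5′ to 3′ with the cores in capitals, because the TEAD core recurs in 4 of the 7. The members were named as targets of YAP and TAZ, which act through TEAD, so their choice was not independent of TEAD sites. The first Ankrd1 stretch is at chr19:36120037-36120066 and the second at chr19:36119950-36119979, both on the minus strand. Those of Amotl2 (chr9:102717727-102717756), Ptpn14 (chr1:189728078-189728157), Crim1 (chr17:78200128-78200207) and F3 (chr3:121723385-121723414) are on the plus strand. The listed start of Amotl2 is not the first of the gene, which begins at chr9:102717091 in this build, so its stretch lies inside the gene. The Ankrd1 and Amotl2 stretches overlap annotated exons of these same genes, and the F3 stretch overlaps an exon of Gm43823.
Ankrd1, 222 to 193 bases before the start: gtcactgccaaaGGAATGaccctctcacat
Ankrd1, 135 to 106 bases before the start: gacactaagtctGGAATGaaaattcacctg
Amotl2, 77 to 48 bases before the start: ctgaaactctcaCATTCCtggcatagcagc
Ptpn14, 190 to 111 bases before the start: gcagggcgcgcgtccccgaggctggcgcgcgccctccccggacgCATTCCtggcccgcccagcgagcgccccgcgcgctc
Crim1, 120 to 41 bases before the start: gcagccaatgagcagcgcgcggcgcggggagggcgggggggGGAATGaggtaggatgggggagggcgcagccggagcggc
F3, 152 to 123 bases before the start: cgctgtTGAATCAcggtTGAGTCAcccctt

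To ask whether the target genes differed between SMC and Non-SMC, log2(FPKM + 1) of the 12 libraries was fitted with limma with 1 mean per line, and the 2 within-pair differences were averaged. Of the 10 genes, 9 were lower in SMC and 1, Nuak2, was higher, at an adjusted p under 0.05. Over all rows 42.4% were called lower and 44.7% higher, so a call by itself is common in these lines. Since Ankrd1 and Myof passed the filter only through Non-SMC, their difference follows in part from the filter, and among the other 8 members 7 were lower. The median log2 difference (SMC minus Non-SMC) of the 10 was -1.996 against 0.02 over all rows. It includes Ankrd1 and Myof, and the other 8 were at -3.81 to 0.51. Ranked by this difference, Ankrd1 and Myof had 0.274% and 0.373% of rows below them, F3 2.12%, Nt5e 3.36% and Amotl2 5.65%. Dock5, Crim1, Ptpn14 and Fjx1 had 10.5% to 18.7% below them, and Nuak2 69.0%. For 7 of the 10, Ankrd1 and Myof among them, all SMC libraries lay below all Non-SMC libraries, against 27.1% of rows. Nuak2, Fjx1 and Dock5 overlapped between the classes. In such bulk libraries, fewer cells that express a gene and less RNA per cell cannot be told apart. Adding 1 FPKM before the logarithm shrinks the difference of genes with low values.

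**Figure D1:**
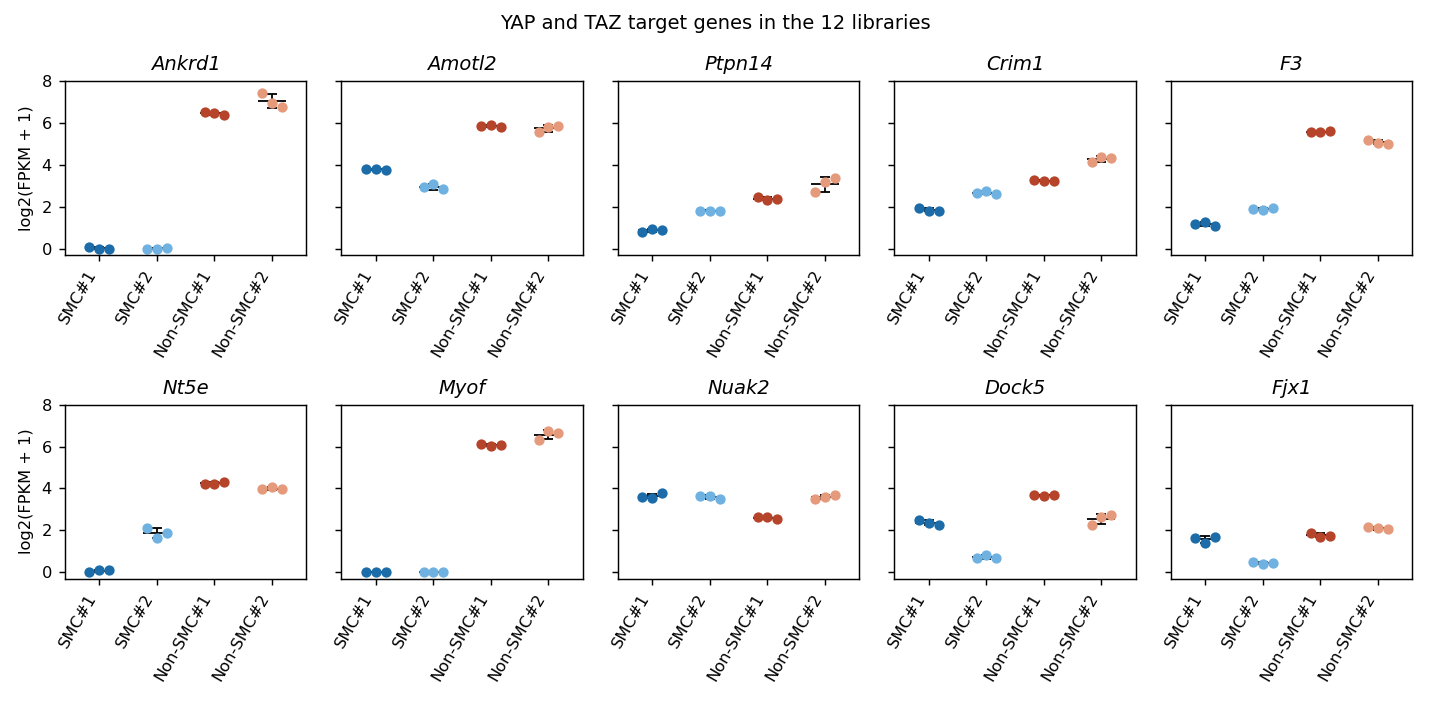
Level of each gene as log2(FPKM + 1) in the 3 libraries of SMC#1, SMC#2, Non-SMC#1 and Non-SMC#2; each point is 1 library, and black bars give the line mean and SD. Ankrd1 and Myof sit at about 0 in both SMC lines, and Nuak2 stands apart from the other 9 in being lowest in Non-SMC#1.

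Ankrd1 was the member with the largest difference. It encodes an ankyrin repeat protein of nucleus and sarcomere that is induced by stretch and stress in heart muscle, and it is a standard readout of YAP and TAZ. Ankrd1 was listed at 0 in 4 of the 6 SMC libraries, with 0.0447 FPKM in SMC#1 replicate 1 and 0.0195 in SMC#2 replicate 3, which correspond to about 2.36 and 1.18 fragments. It was at 90.7, 87.7 and 82.3 FPKM in Non-SMC#1 and at 170, 124 and 106 in Non-SMC#2. The classes did not overlap, and the log2 difference was -6.73 (SE 0.09, limma adjusted p = 4.39e-16). Since Ankrd1 passed the filter only through Non-SMC, the lack of overlap and the p-value follow in part from the filter. No fold is given against libraries at 0. In Non-SMC#2 it was higher than 96.5% of rows tested, and in Non-SMC#1 higher than 93.9%.

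Because Ankrd1 is also a muscle gene, a list of 6 striated muscle markers was read beside it. Their summed level was 0.408 to 2.03 FPKM in SMC, 4.88 to 6.50 in Non-SMC#1 and 60.2 to 90.2 in Non-SMC#2, in Non-SMC nearly all of it from the troponin gene Tnnt2. The myosin gene Myh6 was listed at 0 in every Non-SMC library, and Myh7, Actn2 and Nppa did not pass 0.0720 FPKM there. The part of muscle-type expression in the Ankrd1 level was not tested.

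Amotl2 and Ptpn14 encode proteins that bind YAP and hold it outside the nucleus. Amotl2, of the angiomotin family, was at 12.8, 13.0 and 12.7 FPKM in SMC#1 and 6.67, 7.38 and 6.07 in SMC#2. The Non-SMC values were 56.6, 57.9 and 55.0 in Non-SMC#1 and 46.2, 55.7 and 56.2 in Non-SMC#2. It was thus lower in SMC without overlap, yet it was among the 2 highest members in both SMC lines. The log2 difference was -2.43 (SE 0.06, limma adjusted p = 1.75e-13), and Non-SMC was 4.41-fold higher in pair 1 and 7.86-fold higher in pair 2. Ptpn14, a phosphatase that binds YAP, was at 0.751, 0.884 and 0.819 FPKM in SMC#1 and 2.52, 2.52 and 2.45 in SMC#2. In Non-SMC it was at 4.45, 3.94 and 4.11 in the first line and 5.43, 8.04 and 9.38 in the second. Its libraries did not overlap between the classes either, and the log2 difference was -1.39 (SE 0.09, adjusted p = 8.57e-09). With the line as the unit, so that only 4 values enter, the adjusted p of Ptpn14 was 0.0594 and the call was lost.

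F3, Nt5e and Crim1 encode proteins of the cell surface. F3 encodes tissue factor, which starts blood coagulation. It was at 1.22, 1.37 and 1.10 FPKM in SMC#1 and 2.67, 2.59 and 2.77 in SMC#2, and at 45.9, 46.1 and 48.2 in Non-SMC#1 and 35.5, 31.7 and 30.9 in Non-SMC#2. Non-SMC was 38.0-fold higher in pair 1 and 12.2-fold higher in pair 2 (log2 difference -3.81, SE 0.05, limma adjusted p = 2.96e-16), and the classes did not overlap. Among the 7 promoters searched, that of F3 was the only 1 with an AP-1 core, and it held a pair. Whether these cores bear on the level of F3 was not tested.

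Nt5e encodes CD73, the ectoenzyme that makes adenosine from AMP outside the cell. It was listed at 0 and at 0.0625 and 0.0656 FPKM in the libraries of SMC#1, and was at 3.28, 2.07 and 2.67 FPKM in SMC#2. In Non-SMC it was at 17.8, 17.6 and 19.0 in the first line and 14.8, 15.7 and 14.5 in the second. The SMC lines therefore differed from each other far beyond their spread while the Non-SMC lines were close. The log2 difference was -3.17 (SE 0.07, limma adjusted p = 6.01e-14), and Non-SMC#2 was 5.60-fold above SMC#2. With a pseudocount of 0.1 FPKM the log2 difference was -4.75, and -7.03 in pair 1 alone in place of -4.20.

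Crim1 encodes a transmembrane protein that binds bone morphogenetic proteins. It was at 2.79, 2.50 and 2.48 FPKM in SMC#1, 5.28, 5.80 and 5.10 in SMC#2, 8.53, 8.26 and 8.47 in Non-SMC#1 and 16.3, 19.8 and 18.9 in Non-SMC#2. The 4 lines thus formed 4 separate levels, with the upper SMC line below the lower Non-SMC line. The log2 difference was -1.49 (SE 0.05, limma adjusted p = 1.18e-11), or 3.25-fold in pair 1 and 3.39-fold in pair 2. The Crim1 row overlaps that of Fez2, and with no strand setting stated their reads cannot be told apart where they overlap. Fez2 was at 2.57 to 3.67 FPKM in SMC and 22.4 to 61.7 in Non-SMC.

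Myof encodes myoferlin, a membrane protein of the ferlin family that acts in membrane repair and fusion. It was listed at 0 in 2 of the 6 SMC libraries and was at 0.00326 to 0.00995 FPKM in the other 4, which correspond to about 0.972 to 1.96 fragments. It was at 68.0, 64.8 and 65.4 FPKM in Non-SMC#1 and at 78.5, 106 and 99.1 in Non-SMC#2. Its presence was thus at the limit of detection in SMC, while in Non-SMC it was the second most abundant member (log2 difference -6.31, SE 0.06, limma adjusted p = 3.71e-17). Myof too passed the filter only through Non-SMC, and its p-value follows in part from that. With a pseudocount of 0.1 FPKM the difference was -9.57, and -9.31 in place of -6.06 in pair 1.

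Dock5 and Fjx1 overlapped between the classes. Dock5 encodes an exchange factor for the small GTPase Rac, which drives spreading and migration. It was at 4.60, 4.13 and 3.79 FPKM in SMC#1, 0.602, 0.764 and 0.618 in SMC#2, 12.04, 11.7 and 11.8 in Non-SMC#1 and 3.78, 5.30 and 5.58 in Non-SMC#2. SMC#1 and Non-SMC#2 overlapped, so the classes did too, although each SMC line lay below the Non-SMC line of its pair. The log2 difference was -1.56 (SE 0.08, limma adjusted p = 2.62e-10). Its row contains the microRNA gene Mir6539, whose reads cannot be separated from it.

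Fjx1 encodes the homolog of four-jointed, which in Drosophila is a Golgi kinase acting on the cadherins Fat and Dachsous upstream of Hippo signaling. It was at 2.07, 1.64 and 2.26 FPKM in SMC#1, 0.417, 0.308 and 0.359 in SMC#2, 2.67, 2.21 and 2.33 in Non-SMC#1 and 3.53, 3.25 and 3.12 in Non-SMC#2. It was the least abundant member in both Non-SMC lines, and only SMC#2 stood clearly below the rest. The log2 difference was -0.92 (SE 0.06, limma adjusted p = 4.75e-09), and with the line as the unit the adjusted p was 0.268. With a pseudocount of 0.1 FPKM the difference was -1.58, and -2.89 in place of -1.66 in pair 2.

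Nuak2, an AMPK-related kinase active under metabolic and cytoskeletal stress and known as a YAP target, was the member that was higher in SMC on average. It was at 11.2, 10.7 and 12.6 FPKM in SMC#1 and 11.4, 11.6 and 10.3 in SMC#2. The Non-SMC values were 5.26, 5.24 and 4.81 in Non-SMC#1 and 10.3, 11.1 and 12.1 in Non-SMC#2. Non-SMC#1 was low and the other 3 lines overlapped. The averaged log2 difference of 0.51 (SE 0.06, limma adjusted p = 1.36e-06) thus came from pair 1, and with the line as the unit the adjusted p was 0.331. In SMC#2 Nuak2 was the most abundant of the 10 genes (11.1 ± 0.719 FPKM, SD, n = 3), and in SMC#1 it was second after Amotl2.

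The pairs were then compared. In pair 1 Nuak2 was higher in SMC and 9 members were lower, where 43.9% of rows were called higher and 36.5% lower. In pair 2 the same 9 members were lower and none was higher, where 42.8% of rows were called lower and 39.2% higher. Nuak2 was thus the only member whose call differed between the pairs. A lower call in both pairs was made for 9 of the 10 genes and for 30.2% of rows. Ankrd1 and Myof are in each of these counts and in those without overlap below. Both passed the filter only through Non-SMC, so their calls follow in part from the filter. The others of the 9 were Amotl2, Ptpn14, Crim1, F3, Nt5e, Dock5 and Fjx1. Without overlap between the 3 SMC and the 3 Non-SMC libraries, 8 members were lower in pair 1 (39.7% of rows) and 9 in pair 2 (42.0% of rows). The exception among the 9 was Fjx1 in pair 1, with a log2 difference of -0.19 (SE 0.08, limma adjusted p = 0.0485). Leaving out 1 library at a time gave -0.26 to -0.10, and 8 of the 12 such fits lost the call, those without SMC#1 replicates 1 and 2, Non-SMC#1 replicates 1 and 3, any replicate of SMC#2, or Non-SMC#2 replicate 2. After quantile normalization the difference was larger, -0.55 (adjusted p = 3.26e-05).

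**Figure D2:**
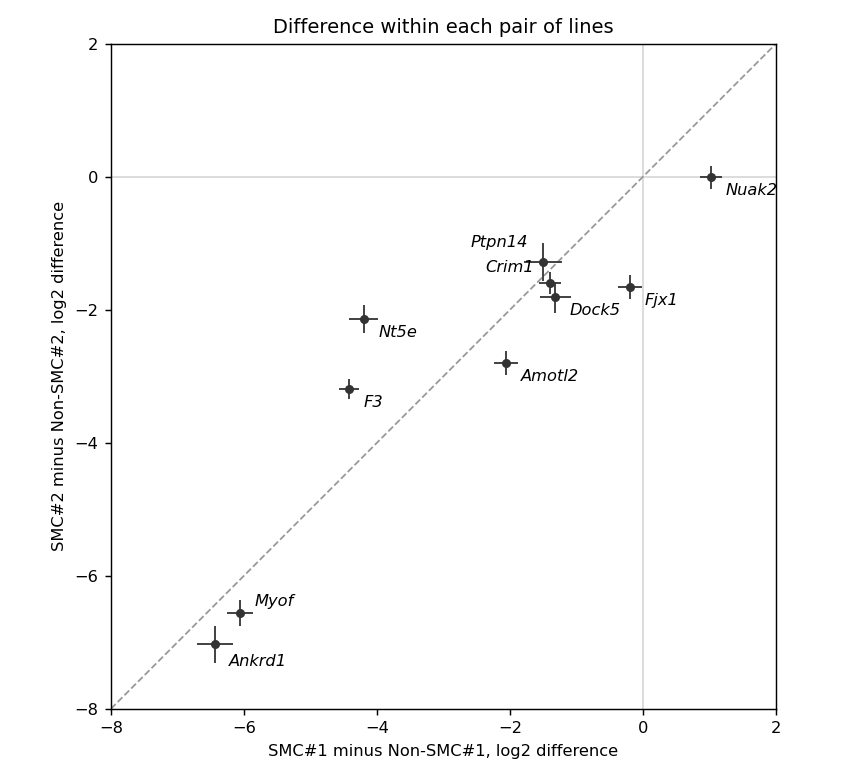
Log2 difference of each gene in pair 1 (SMC#1 minus Non-SMC#1, x axis) and pair 2 (SMC#2 minus Non-SMC#2, y axis), with 95% confidence intervals; the dashed line marks equal differences. F3 and Nt5e lie above the line (larger fall in pair 1), Fjx1, Nuak2 and Amotl2 below it, and Nuak2 sits at 1.03 in pair 1 and -0.006 in pair 2.

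The size of the difference was not the same in both pairs for most members, which was also so for most rows (7957 of 13122 called). Pair 1 minus pair 2 was called for 8 of the 10 genes, 6 with a positive and 2 with a negative value, where 38.2% of rows were called positive and 22.5% negative. The median over all rows was 0.16 in this comparison and 0.50 over the 10 genes, and the former moved by -0.14 with median-ratio scaling and by -0.17 with quantile normalization. Fjx1 showed the largest positive value, 1.47 (SE 0.12, limma adjusted p = 2.04e-07), since Non-SMC was 1.21-fold above SMC in pair 1 and 9.14-fold above it in pair 2. Nuak2 followed at 1.04 (adjusted p = 3.63e-06), with SMC 2.25-fold above Non-SMC in pair 1 and a pair 2 difference of -0.006 (95% interval -0.18 to 0.16, adjusted p = 0.947). For both genes 1 line lay below all others, SMC#2 for Fjx1 and Non-SMC#1 for Nuak2. Amotl2 was at 0.74. Nt5e at -2.06 and F3 at -1.22 went the other way, with the larger fall in pair 1.

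Ankrd1 (0.60), Myof (0.50) and Dock5 (0.50) were also called, with smaller values. For Ankrd1 and Myof the SMC values were at or near 0 in both pairs, so that the value between pairs follows the difference between the Non-SMC lines on this scale. The Dock5 value did not pass the test after median-ratio scaling (0.38, adjusted p = 0.0594) and was 1.21 with a pseudocount of 0.1 FPKM, with which Nt5e was at -4.57 and Fjx1 at 2.62. Crim1 (0.20, 95% interval -0.04 to 0.43, adjusted p = 0.131) and Ptpn14 (-0.23, interval -0.64 to 0.17, adjusted p = 0.294) were not called. Crim1 was called without Non-SMC#2 replicate 1 (0.28), and Ptpn14 without Non-SMC#2 replicate 3 (-0.38), with a pseudocount of 0.1 FPKM (-0.68) and after quantile normalization (-0.53).

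Lines of the same class were compared next, to show how far the members varied with the class held fixed. Between the SMC lines 3 members were higher in SMC#1 (36.2% of rows) and 4 were lower (20.6% of rows). Dock5 was 6.31-fold and Fjx1 5.51-fold higher in SMC#1, and Amotl2 was 1.91-fold higher. Crim1, F3 and Ptpn14 were 2.08-fold, 2.17-fold and 3.05-fold higher in SMC#2, and the log2 difference of Nt5e, listed at 0 in 1 library of SMC#1, was -1.80 (SE 0.10). The members thus varied between the SMC lines in both directions. Ankrd1, Myof and Nuak2 did not pass the test, with log2 differences of 0.01, 0.001 and 0.04. The 95% interval of Nuak2 was -0.13 to 0.21. With a pseudocount of 0.1 FPKM the log2 differences of the lower genes grew, to -4.29 for Nt5e, 2.17 (from 1.13) for Fjx1, 2.49 (from 1.64) for Dock5 and -1.50 (from -0.94) for Ptpn14.

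Between the Non-SMC lines 3 members were higher in Non-SMC#1 (25.8% of rows) and 6 were lower (31.5% of rows). Dock5 was 2.42-fold higher in Non-SMC#1, F3 1.43-fold and Nt5e 1.21-fold. The Nt5e call (log2 difference 0.26, SE 0.10, limma adjusted p = 0.0381) was lost in 7 of the 12 fits that leave out 1 library (0.23 to 0.29), those without SMC#1 replicate 2, any replicate of Non-SMC#1, SMC#2 replicate 3, or Non-SMC#2 replicates 1 or 3. The stress kinase gene and most others were higher in the second line. Nuak2 was 2.19-fold, Crim1 2.17-fold and Ptpn14 1.83-fold higher in Non-SMC#2, and Ankrd1, Myof and Fjx1 were 1.53-fold, 1.43-fold and 1.37-fold higher there. The log2 difference of Fjx1 was -0.34, and -0.22 after quantile normalization. Amotl2 did not pass the test (0.10, 95% interval -0.08 to 0.29). Thus Dock5 was higher in the first line and Crim1 and Ptpn14 higher in the second line of both classes, while F3, Nt5e and Fjx1 were ordered oppositely in the SMC and the Non-SMC lines.

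**Figure D3:**
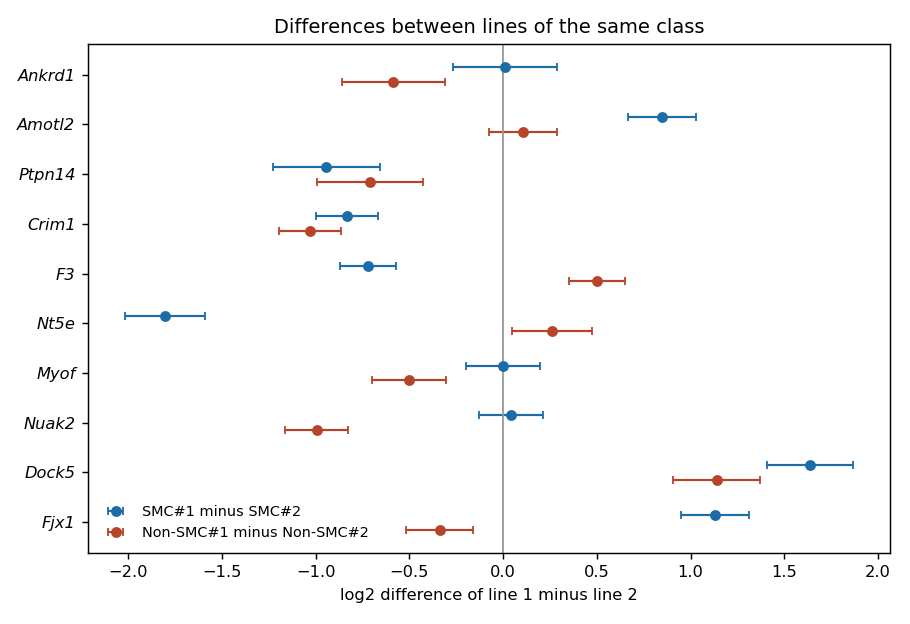
Log2 difference between the lines of a class for each gene, SMC#1 minus SMC#2 in blue and Non-SMC#1 minus Non-SMC#2 in red, with 95% confidence intervals. Dock5 is positive in both classes (1.64 and 1.14), Crim1 and Ptpn14 are negative in both, and F3, Nt5e and Fjx1 change sign between the classes.

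The levels of the members also ranked differently in the 2 classes. FPKM is scaled to transcript length, so levels of different genes can be set side by side. In both Non-SMC lines the order began with Ankrd1, Myof, Amotl2 and F3, from 133 ± 33.0 down to 32.7 ± 2.46 FPKM in the second line and from 86.9 ± 4.24 down to 46.7 ± 1.27 (SD, n = 3) in the first. In both SMC lines Ankrd1 and Myof were last, and Amotl2 and Nuak2 led with 6.70 to 12.8 FPKM. In SMC#1 the means of Amotl2 and Nuak2 (12.8 ± 0.177 and 11.5 ± 0.954) were close, and in SMC#2 Nt5e, F3 and Ptpn14 were at 2.67 ± 0.604, 2.67 ± 0.0890 and 2.49 ± 0.0393, where the spread of Nt5e covered the other two and F3 and Ptpn14 did not overlap. Summed over the 10 genes, the libraries held 30.4 to 35.7 FPKM in SMC and 302 to 384 in Non-SMC. The classes did not overlap in this sum, which in Non-SMC rests to a large part on Ankrd1 and Myof. Without Ankrd1 and Myof the sums were 30.3 to 35.7 and 136 to 154 FPKM.

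Other genes of the pathway were read from 2 lists. The remaining 12 genes of the signature were all called lower in SMC, against 42.4% of rows, with a median log2 difference of -3.78. In 8 of them (Lats2, Ctgf, Cyr61, Axl, Igfbp3, Foxf2, Ccdc80 and Tgfb2) every SMC library was under 1 FPKM, so they passed the filter only through Non-SMC and their count and median carry no weight of their own. The other 4 (Asap1, Gadd45a, Arhgef17 and Rbms3) were at -1.53 to -0.58. The largest was Cyr61 (-7.88), a secreted matrix protein of the CCN family, and the smallest Gadd45a (-0.58), a stress gene of DNA repair and growth arrest. Gadd45a was also the exception among the 12 when the pairs were taken alone. It was at 12.6 to 14.5 FPKM in SMC#1 and 5.89 to 6.90 in Non-SMC#1, and at 5.89 to 6.79 in SMC#2 and 26.8 to 36.8 in Non-SMC#2, so it was higher in SMC in pair 1 (0.95, limma adjusted p = 2.38e-06), as Nuak2 was, and lower in pair 2 (-2.10).

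The cofactors and their partners, Yap1, Wwtr1 (the gene of TAZ) and Tead1 to Tead4, were all called lower in SMC, 6 of 6, against 42.4% of rows. Their median was -3.13. Wwtr1 and Tead4 passed the filter only through Non-SMC, so the count and the median follow in part from the filter. The other 4 were at -4.67 to -0.64. Tead1 overlapped between the classes, at 11.5 to 15.4 FPKM in SMC and 13.0 to 25.7 in Non-SMC. Yap1 was at 0.142 to 1.44 FPKM in SMC and 30.5 to 51.2 in Non-SMC, and Wwtr1 at 0 to 0.0125 and 33.4 to 53.9. Yap1 was at 0.142 to 0.294 FPKM in SMC#1 and 1.10 to 1.44 in SMC#2, the SMC line in which Crim1, F3, Nt5e and Ptpn14 were also higher and Amotl2, Dock5 and Fjx1 lower. Tead2 was at 0.134 to 0.358 FPKM in SMC#1 and 12.3 to 13.3 in SMC#2, and Tead3 at 2.67 to 2.99 and 3.75 to 4.19. Tead4 went the other way, at 0.462 to 0.765 and 0 to 0.0192. Whether the members follow any of these genes was not tested. In the Non-SMC lines the cofactors were ordered oppositely to each other, with Yap1 at 49.9 to 51.2 FPKM in Non-SMC#1 and 30.5 to 36.6 in Non-SMC#2, and Wwtr1 at 33.4 to 36.7 and 48.7 to 53.9.

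**Figure D4:**
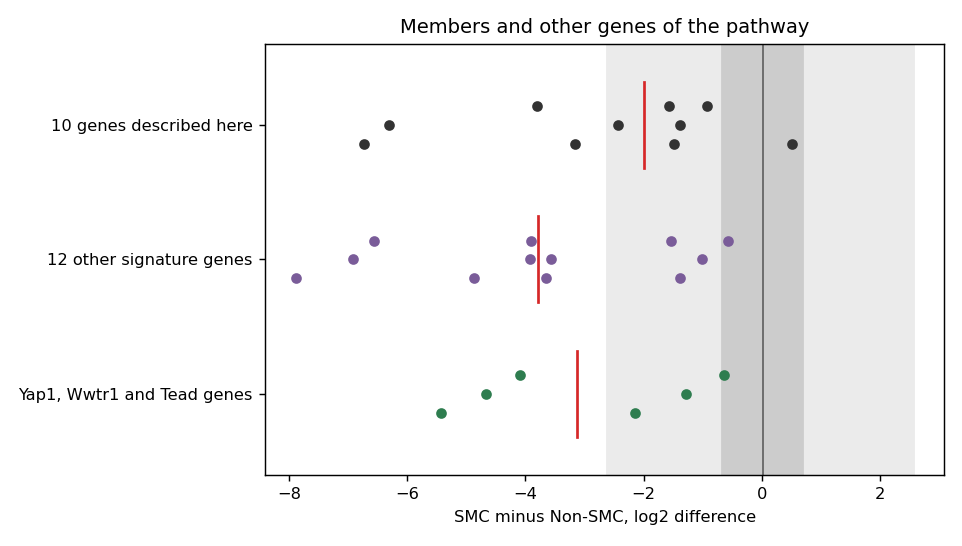
Log2 difference (SMC minus Non-SMC) of the 10 genes, of the 12 other signature genes and of Yap1, Wwtr1 and the 4 Tead genes; each point is 1 gene and red bars are list medians (-1.996, -3.78 and -3.13). Gray bands hold the middle 50% and 90% of all 13122 rows, with a line at their median of 0.02, and 1 member, Nuak2, lies to the right of 0. The list medians include genes that passed the filter only through Non-SMC.

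Markers of fibroblasts, which also express many YAP and TAZ targets, were mostly higher in Non-SMC. The summed level of 12 fibroblast markers was 1.82 to 5.24 FPKM in SMC, 2574 to 2606 in Non-SMC#1 and 526 to 760 in Non-SMC#2. In Non-SMC 7 of the 12 in the first line and 8 in the second reached 1 FPKM in each library, whereas Tcf21 was listed at 0 in all 12 libraries and Lum, Thy1 and Fap did not pass 0.376 FPKM in Non-SMC. Thy1 went the other way, at 0.928 to 2.42 FPKM in SMC and at most 0.0245 in Non-SMC. The part of fibroblast-type expression in the members' difference was not tested. Endothelial markers summed to 11.9 to 18.1 FPKM in SMC, of which Vwf gave 11.8 to 17.9, and to 0.0474 to 0.246 in Non-SMC, and leukocyte markers to 0.762 to 2.27 and 0.926 to 4.97. Lung epithelium markers summed to 44.1 to 53.3 FPKM in SMC#1, 7.16 to 9.16 in SMC#2, 0.473 to 0.822 in Non-SMC#1 and 3.05 to 3.71 in Non-SMC#2.

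The rows most like each member were found by the root mean square difference of the 4 line means of log2(FPKM + 1), each row centered on its own mean. With 4 points from 12 libraries this is a description. Nearest to Nuak2 were Cxadr, an adhesion receptor gene (0.02), Fancl, a Fanconi anemia ubiquitin ligase gene (0.04), and Map3k5, the stress kinase gene ASK1 (0.06). Cxadr was at 20.7 ± 0.523 FPKM in SMC#1, 21.0 ± 0.639 in SMC#2, 9.72 ± 0.516 in Non-SMC#1 and 20.7 ± 0.740 (SD, n = 3) in Non-SMC#2, so it too was low in Non-SMC#1 alone.

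**Figure D5:**
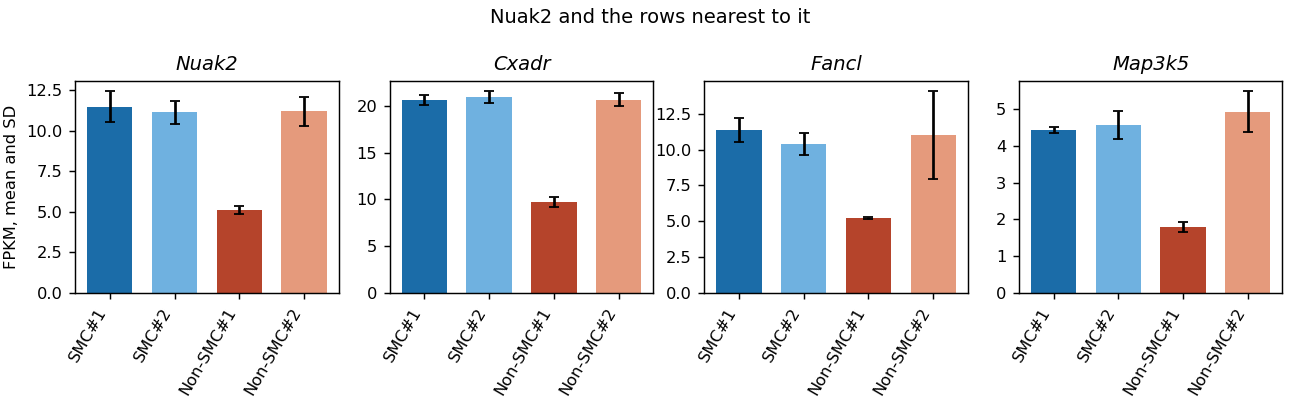
Mean level in FPKM (bars, with SD of 3 libraries) of Nuak2 and of the 3 rows nearest to it, Cxadr, Fancl and Map3k5, in the 4 lines. In all 4 genes the Non-SMC#1 bar is the lowest, at 5.11 FPKM for Nuak2 and 9.72 for Cxadr, and the other 3 bars are close to each other.

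Nearest to the other members were Axl (Ankrd1, 0.09), a receptor kinase gene of the same signature, Gja1 (Myof, 0.10), the gap junction gene connexin 43, and Dse (F3, 0.03), which encodes an enzyme of dermatan sulfate synthesis. Abcg2, a drug efflux transporter gene, was nearest to Nt5e (0.14), Hcfc1r1 to Amotl2 (0.03), Gfra1, a GDNF coreceptor gene, to Crim1 (0.08), and the ribosomal protein gene Rps2 to Ptpn14 (0.09). Tgfb3, a growth factor gene, was nearest to Dock5 (0.04), and Grina to Fjx1 (0.05). Among the 100 rows nearest to each member, Ankrd1 and Myof were in each other's, Crim1 and Ptpn14 were in each other's, and F3 was among those of Nt5e. The 100 rows nearest to Amotl2, F3, Nuak2, Dock5 and Fjx1 held no other member.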

How the data were processed

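Total RNA of 12 libraries was sequenced as paired-end reads. The methods and the submitters' processing notes name STAR 2.6.1b for mapping to mm10 and DESeq2 for differential expression. The authors deposited FPKM, 1 value per row and library. The tool that made the FPKM values, its scaling and any strand setting are not given in the sources used here. Row positions are those of the older build mm9. Every sample column matched 1 label (0 were left out). The table gives no counts, so depth was estimated from 2932 genes with 1 transcript (25029400 to 38323000 fragments with no length taken off). A value of 0 can be a failed estimate, since 4 of 80 rows for ribosomal proteins were listed at 0 throughout.

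The 13122 rows that reached 1 FPKM in 3 or more libraries were transformed to log2(FPKM + 1) and fitted across all genes with limma 3.58.1 (trend, robust) in R 4.3.3, with a mean per line. Tests were two-sided with Benjamini-Hochberg adjustment over all rows, and a row was called at an adjusted p under 0.05. The count-based test of the study could not be run on FPKM. The script was tested on simulated data. Alternatives were a pseudocount of 0.1, no filter, median-ratio scaling, quantile normalization, a replicate block, the line as the unit and leaving out each library. All members were named. Of the other signature genes, those off the majority and the extremes were named, and of like rows the 3 nearest to Nuak2 and the nearest to each other member. Members and lists were chosen with earlier results of these data known.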

Additional observations from a re-analysis of the deposited data

Results flagged for a closer look

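In the 6 Non-SMC libraries, the Amotl2 level of Non-SMC#2 replicate 1 (46.2 FPKM) lay apart from the other 5, which were at 55.0 to 57.9. A gap of this kind is given by chance in about 1 of 20 groups. Every member was screened in each class, so among so many groups such a gap can well arise by chance. Each group also joins different lines, for which this rate need not hold.

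The SMC minus Non-SMC difference was not equal in the pairs, by a test of the difference itself (pair 1 minus pair 2, limma, adjusted over all rows), for 8 members. The log2 values were 0.60 for Ankrd1, 0.74 for Amotl2, -1.22 for F3, -2.06 for Nt5e, 0.50 for Myof, 1.04 for Nuak2, 1.47 for Fjx1 and 0.50 for Dock5. Of all rows tested, 38.2% passed it with a positive and 22.5% with a negative value. It compares 1 pair of lines with 1 other pair.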

How the results depend on the processing

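Of 1030 values (each member, comparison and alternative), 989 kept their direction and their side of the threshold. For many of these the direction could not change. No filter, the replicate block and the line as the unit leave the log2 difference as it is. So does leaving out a library of a line that the comparison does not use. With the line as the unit 2389 rows were called in place of 11430, and Nuak2 (adjusted p = 0.331), Fjx1 (0.268) and Ptpn14 (0.0594) lost their calls, while the other 7 members kept theirs. The direction of differences that had not passed the test turned in 12 fits. Nuak2 in pair 2 was 0.065 after median-ratio scaling and 0.11 after quantile normalization (-0.057 to 0.047 leaving out libraries), and between the SMC lines -0.073 and -0.065 (-0.020 to 0.085). Crim1 between pairs was -0.10 after quantile normalization. Between the SMC lines, leaving out libraries gave -0.0093 to 0.022 for Ankrd1 and -0.0025 to 0.0047 for Myof. The Fjx1 call in pair 1 was also lost with a pseudocount of 0.1 (-0.27) and no filter, and the Nt5e call between the Non-SMC lines with a pseudocount of 0.1, no filter, quantile normalization and the replicate block (adjusted p = 0.0513). The block changed no other call of a member, and same-numbered libraries did not vary together in every pair (r = -0.38 to 0.31). The causes were not tested, beyond the fewer values of the line as unit. Scaling moved the median of all rows by under 0.1 except in pair 2 after quantile normalization (0.12) and between pairs (-0.14 and -0.17). Only 2 lines stand behind each class, and at these depths 1 to 2 fragments set the SMC values of Ankrd1 and Myof.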
